A study of Mus musculus with 4 samples.

Results

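The regions described here lie at 10 mouse genes (Palld, Trio, Sipa1l2, Lrrk2, Fignl2, Klhl5, Cradd, Zfp423, Btn2a2 and Pced1b) and were mapped by ATAC-seq, which marks open chromatin by where a transposase inserts adapters, in endothelial cells that were sorted from lung. There were 2 libraries of mice lacking Dnmt3a (knockout, KO) and 2 of wild-type (WT) mice, and genotype is the only labelled difference. The deleted allele, any Cre driver, the age of the mice and any pooling of animals are not given in the sources used here. Each library came as a list of peaks with position and width and with no read count, so read depth is unknown and an unlisted peak does not show closed chromatin. A bulk list cannot tell a site open in few cells from one weakly open in many.

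A region was formed wherever peaks of the 4 lists overlapped, and it was taken for a gene when it overlapped the span of the gene or the 50 kb either side. Of 113056 regions in all, 399 met this rule. A region called in both KO lists and in neither WT list is named a KO-only region, the reverse a WT-only region, and a region called in all 4 lists a shared region. The 10 genes were chosen because KO-only regions gather at them, so the number, position and width of those regions, and every other KO against WT value at these genes, are a description with no test.

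Dnmt3a encodes a de novo DNA methyltransferase, which places methyl groups on cytosines in CG dinucleotides and is active in development and differentiation. Methylated CG-rich promoters are generally silent, and many enhancers lose methylation when transcription factors occupy them. The genes were gathered by their regions and not by a pathway. Palladin, Trio, Sipa1l2, Lrrk2 and Fignl2 belong to families that act on the cytoskeleton or on small GTPases, Klhl5 and Cradd encode adaptor proteins, Zfp423 encodes a transcription factor, Btn2a2 an immunoglobulin-like surface protein, and Pced1b a protein with a PC-esterase domain.

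The 4 lists held 85091 and 100879 peaks in KO and 101442 and 97627 in WT. The KO lists overlapped each other less (Jaccard index by base pairs 0.708) than any other pair did (0.720 to 0.823). KO replicate 2 also stood apart at sex-linked genes: it had no peak at any of 5 Y-linked genes, where the other libraries had peaks at 3 or 4, and it had 3 peaks at Xist against 1 in each of the others. Peaks lay within 1000 bp of an end of all 10 endothelial marker genes in every library. For 30 markers of other cell types the KO libraries had such peaks at 15 and 16, against 17 and 16 for WT, and all 5 mural markers were among them in every library. By class, the KO libraries had such peaks at 5 and 6 of 7 epithelial markers, against 6 in each WT library, and at 0 of 7 pan-leukocyte and myeloid markers, against 1 and 0 in WT. Every library had them at 3 of 5 fibroblast and 2 of 6 lymphocyte markers. By a stricter rule, 44.98% of 32851 windows at RefSeq transcript starts overlapped a shared region. The share of all genes by the marker rule was not worked out, so the counts do not show which other cell types were present. The part of the differences between libraries in the results below was not tested. At Dnmt3a itself and 50 kb either side, 32 regions held 24 and 31 peaks in KO and 30 and 27 in WT, and 1 was KO-only. Peak positions do not show the deleted sequence.

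Klhl5 was the gene where a KO-only region covered a transcript start, so its start windows are shown, each running from 250 bp before to 50 bp after a start (RefSeq, GRCm38.p6, which is the mm10 assembly; plus strand, read 5′ to 3′), with CG dinucleotides in capitals. The window of the first start, chr5:65107318-65107617, lay under a shared peak. The window of the internal start, chr5:65130981-65131280, lay wholly within a KO-only region. The window of LOC115490189, a long non-coding RNA gene inside Klhl5, at chr5:65131533-65131832, lay wholly within the neighbouring KO-only region.
Klhl5 first start: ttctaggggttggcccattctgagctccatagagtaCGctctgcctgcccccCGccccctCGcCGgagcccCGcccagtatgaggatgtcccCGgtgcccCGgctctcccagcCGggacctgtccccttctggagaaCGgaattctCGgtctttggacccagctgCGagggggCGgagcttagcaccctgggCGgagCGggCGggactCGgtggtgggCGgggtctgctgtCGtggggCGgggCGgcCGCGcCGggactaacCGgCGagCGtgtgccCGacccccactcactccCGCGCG
Klhl5 internal start: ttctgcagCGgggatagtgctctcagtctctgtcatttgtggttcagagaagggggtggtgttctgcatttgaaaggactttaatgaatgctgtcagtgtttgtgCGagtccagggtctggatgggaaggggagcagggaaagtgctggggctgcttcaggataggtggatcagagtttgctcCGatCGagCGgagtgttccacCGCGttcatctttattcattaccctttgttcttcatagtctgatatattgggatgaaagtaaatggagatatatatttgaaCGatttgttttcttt
LOC115490189 start: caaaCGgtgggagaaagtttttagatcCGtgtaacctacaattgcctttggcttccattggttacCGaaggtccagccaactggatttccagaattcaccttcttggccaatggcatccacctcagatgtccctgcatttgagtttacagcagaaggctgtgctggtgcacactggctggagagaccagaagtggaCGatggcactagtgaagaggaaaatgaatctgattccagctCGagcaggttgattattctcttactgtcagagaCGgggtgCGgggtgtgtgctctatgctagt
The window at the first start holds 30 CG dinucleotides, a number that 11.7% of 32851 RefSeq start windows reach. The windows under the KO-only regions hold 8 at the internal start and 7 at LOC115490189, numbers that 48.65% and 52.1% of windows reach. Of other motifs searched on both strands, GGGCGG, the core of a GC box, occurs 8 times at the first start and in neither of the other windows, against at least once in 35.7% of all windows. TGANTCA, which AP-1 factors bind, and CCGGAA, part of many ETS sites, occur in none of the 3 (7.81% and 14.9% of all windows hold them). A match or its lack describes letters only.

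KO-only regions made up 33 of the 399 regions, or 8.27%, where the background over all regions was 1.12% (1267 regions). This excess is what the choice of genes selected, and nothing is read from it. WT-only regions numbered 8, or 2.01%, against a background of 3.04%, and shared regions 247, or 61.9%, against 66.7%. Lists of equal length were made by keeping the widest peaks of each list, down to the number in the shortest, KO replicate 1. The background was then 1.96% KO-only, and over the series KO-only and WT-only regions numbered 1945 and 1943, against 1267 and 3434 uncut. This cut took the narrowest peaks from the other lists and none from KO replicate 1, so it is not a match for depth. Regions called in a single list were 7 for KO replicate 1 (1.75%, against 1.92% over the series) and 24 for KO replicate 2 (6.02%, against 4.56%). For the WT lists they were 14 for replicate 1 (3.51%, against 4.34%) and 6 for replicate 2 (1.504%, against 2.55%). Peaks in the 10 gene windows totalled 316 and 369 in KO and 337 and 316 in WT, so KO replicate 2 was highest and the other libraries overlapped. The KO-only count was 59 without KO replicate 1 (14.6% of regions here, 5.83% over the series). It was 6 when only peaks at or above each list's median width entered (2.99% here, 1.08% over the series). With KO replicate 1 or 2 left out, WT-only regions numbered 19 and 35, and with WT replicate 1 or 2 left out they numbered 14 and 22. Over the series WT-only regions numbered 5631 and 12028, and 6394 and 8464, in the same order, against 3434 with all lists.

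By gene, KO-only regions numbered 4 at Palld, Klhl5, Sipa1l2 and Zfp423, 3 at Fignl2, Btn2a2, Trio, Cradd and Pced1b, and 2 at Lrrk2. With a library left out, the genes with at least 5 were as follows. Without KO replicate 1 the numbers were 11 at Zfp423, 8 at Sipa1l2, 8 at Trio, 6 at Cradd, 6 at Palld, 5 at Fignl2 and 5 at Klhl5. Without KO replicate 2 they were 6 at Btn2a2, 6 at Zfp423 and 5 at Cradd. Without WT replicate 1 they were 8 at Trio, 6 at Zfp423 and 5 at Palld, and without WT replicate 2 they were 5 at Cradd. Over the series the KO-only share was then 5.83% and 3.21% without KO replicates 1 and 2, against 1.12% with all lists. It was 2.14% and 1.89% without WT replicates 1 and 2. With all 4 lists the KO-only share of a gene's regions was highest at Fignl2 (12.5% of 24) and Klhl5 (12.1% of 33) and lowest at Trio (4.84% of 62). WT-only regions lay at 7 of the genes, with 2 at Trio and 1 each at Palld, Sipa1l2, Zfp423, Btn2a2, Cradd and Pced1b; Klhl5, Fignl2 and Lrrk2 had none. Of 21887 protein-coding genes, 307 (1.40%) had at least 2 KO-only regions, the number at Lrrk2, in a window drawn the same way. Of the same genes 86 (0.393%) had at least 3, 33 had at least 4 and 2 had at least 5. Neighbouring genes share windows, so these are not separate events.

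**Figure D1:**
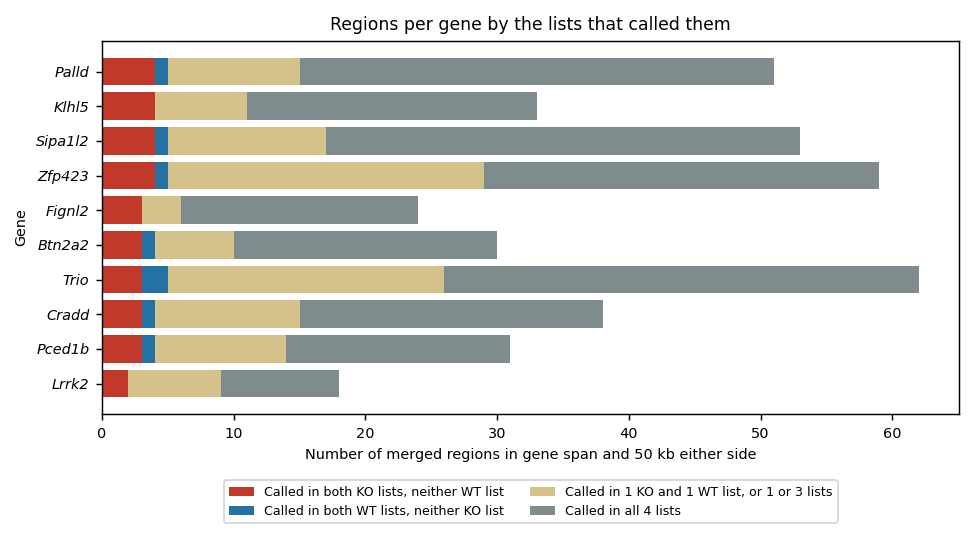
Number of merged regions (x axis) at each gene with 50 kb either side (y axis), coloured by the lists that called them. KO-only regions number 2 to 4 per gene, beside 9 to 36 shared regions.

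The KO-only region within the 50 kb limit that lay farthest from its gene was chr8:125391372-125391709, 26359 bp beyond the 3′ end of Sipa1l2 (227 and 338 bp wide in the KO lists). The nearest ones left out lay 57711 bp from Zfp423 (313 and 330 bp) and 59949 bp from Klhl5 (236 and 333 bp). Chromosome 8 carries Palld, Sipa1l2 and Zfp423, whose 12 KO-only regions are among 106 on that chromosome (1.69% of its 6256 regions). Chromosome 15 carries Trio, Lrrk2, Pced1b and Fignl2, whose 11 are among 61 (1.25% of 4867).

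Of the 33 KO-only regions, 24 (72.7%) overlapped the gene span, 6 lay beyond its 5′ end and 3 beyond its 3′ end, while 66.8% of the 247 shared regions overlapped a span. Of the 33, 4 lay within 1000 bp of a start of their own gene or over it. The median distance to the nearest RefSeq transcript start of any gene was 20674 bp for KO-only and 16775 bp for shared regions at these genes. Within 1000 bp of such a start lay 12.1% of KO-only and 13.4% of shared regions here, against 6.80% of all KO-only regions and 18.7% of all shared regions on chromosomes that the table of starts covers. The annotation used gives gene spans and starts, not exons, so inside a gene could not be split into exon and intron.

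**Figure D2:**
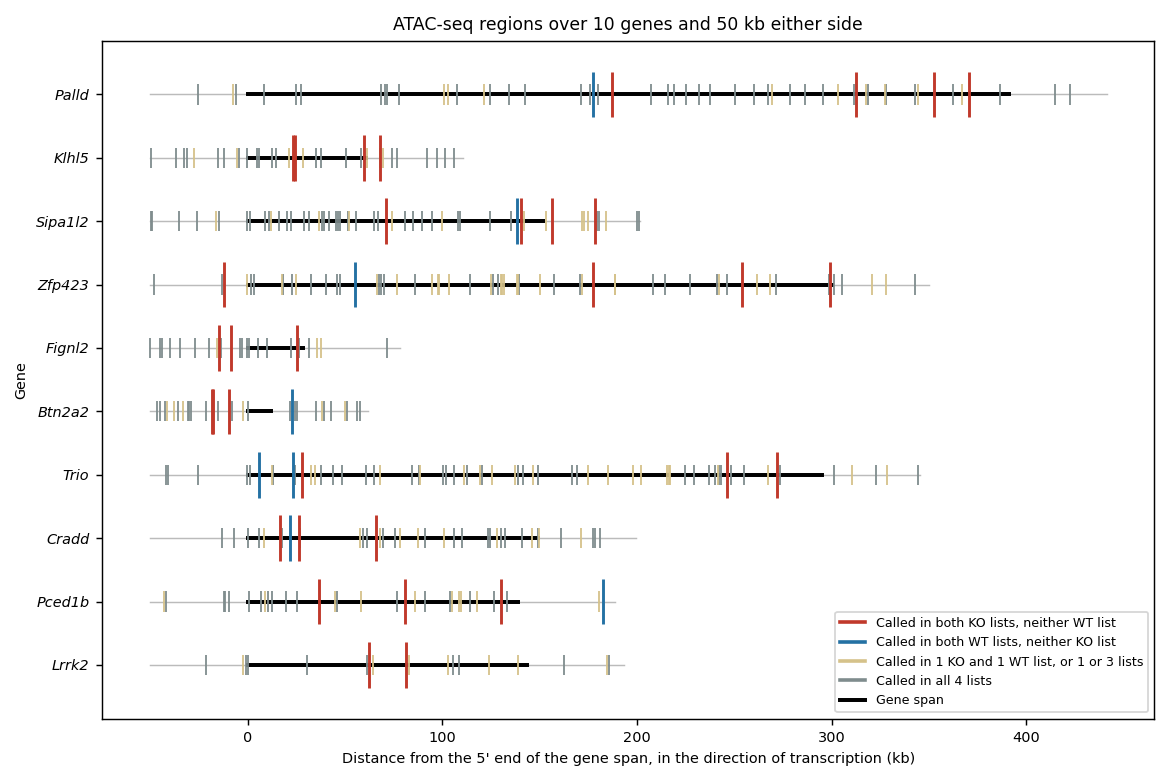
Each row is a gene drawn from its 5′ end (x axis, kb, negative upstream), with the span in black and regions as vertical marks. The 33 KO-only regions are spread over the spans and flanks, with close neighbours at Klhl5 and Btn2a2, and a WT-only region stands between KO-only regions at Sipa1l2, Zfp423 and Cradd.

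KO-only and WT-only regions were both narrow. KO-only peaks had a median width of 249 bp in KO replicate 1 and 312 bp in KO replicate 2, against 494 and 491 bp for shared regions at the same genes in the same libraries. In 25 of the 33 both KO widths were under the median width of their list, in 5 a single one was, and in 3 neither was. A peak of 201 bp, the narrowest any list holds, was present in 7. KO replicate 2 had the larger summed peak width in 23 regions and KO replicate 1 in 9. The 8 WT-only regions had medians of 229.5 and 234.5 bp in the WT lists. Over the series the medians were 262 and 294 bp for KO-only regions and 265 and 249 bp for WT-only regions. A WT peak lay within 500 bp of 6 of the 33 and within 1000 bp of 11, with a median distance of 1628 bp (2416 bp over the series). The nearest shared region was a median of 3094 bp away, and 80 to 20450 bp in all.

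**Figure D3:**
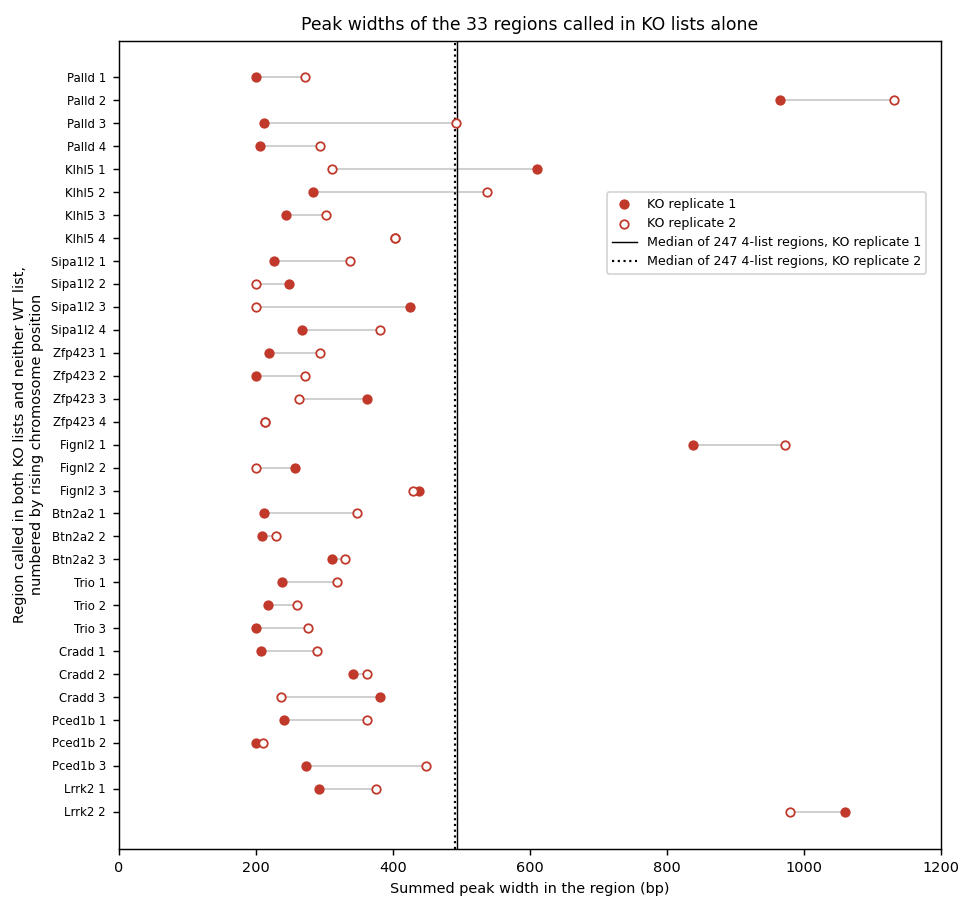
Summed peak width in bp (x axis) of each KO-only region (y axis) in KO replicate 1 (filled) and KO replicate 2 (open); WT lists have no peak there. Most points lie left of the shared-region medians of 494 and 491 bp, and the regions with both points far to the right are at Palld, Fignl2 and Lrrk2.

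Palld (gene 72333, chr8:61511431-61902707, minus strand) encodes palladin, an actin-binding scaffold of stress fibres and cell adhesions. All 4 of its KO-only regions lay inside the gene. The widest, chr8:61549519-61550672, was a single peak of 965 bp in KO replicate 1 and peaks of 795 and 336 bp in KO replicate 2, with the nearest WT peak 8805 bp away. It lay in the 3′ part of the gene, 90.1% of the way along it. A second region, chr8:61589913-61590404, had widths of 212 and 492 bp in KO and lay 734 bp downstream of the most 3′ of 3 annotated starts. That region was 209 bp from the shared peak over that start, which measured 939 and 817 bp in KO and 815 and 889 bp in WT. The other KO-only regions of Palld were narrow, 201 and 272 bp at chr8:61532071-61532342 and 207 and 294 bp at chr8:61715405-61715698. A WT-only region of 204 and 227 bp lay 9208 bp from the last of these.

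Trio (gene 223435, chr15:27730649-28025848, minus strand) encodes a guanine nucleotide exchange factor. Its 3 KO-only regions lay inside the gene and were among the narrow ones. A pair lay in the 3′ part, at chr15:27753625-27753943 (238 and 319 bp in KO) and chr15:27779458-27779719 (218 and 261 bp). The third, chr15:27997510-27997788 (201 and 276 bp), was 28059 bp from the start. A WT-only region of 201 and 214 bp lay 4809 bp from it, and another of 273 and 283 bp nearer the start. Trio had 36 shared regions, as many as Palld and Sipa1l2.

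Sipa1l2 (gene 244668, chr8:125418068-125569863, minus strand) belongs to the SIPA1 family of GTPase-activating proteins for Rap. A pair of its KO-only regions lay inside the gene and a pair beyond its 3′ end. Inside, chr8:125498513-125498894 had 268 and 382 bp in KO and chr8:125429064-125429533 had 425 and 201 bp. That second region was 1859 bp from a WT-only region of 201 bp in each WT list. Beyond the gene, chr8:125413410-125413761 had 249 and 201 bp in KO, with the nearest WT peak 13980 bp away, the longest such distance among the 33.

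Lrrk2 (gene 66725, chr15:91672791-91816124, plus strand) encodes a large protein with a kinase and a GTPase domain, mutated in familial Parkinson disease. It had the fewest regions of the 10 genes, 18, of which 9 were shared and 2 KO-only. The KO-only region chr15:91753720-91754838 was among the widest, with a peak of 1060 bp in KO replicate 1 and peaks of 756 and 224 bp in KO replicate 2. A peak of WT replicate 1 lay 961 bp away, while the nearest of WT replicate 2 lay 19558 bp away. The other, chr15:91735224-91735614, measured 293 and 376 bp.

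Fignl2 (gene 668225, chr15:101050192-101078584, minus strand) encodes a member of the fidgetin family of AAA ATPases, whose founding member severs microtubules. Its KO-only region inside the gene, chr15:101052742-101053714, measured 838 and 973 bp in KO. This region lay 89.3% of the way along the gene and 565 bp from the nearest peak of each WT list. The only start in the annotation used lay inside the span, 684 bp upstream of the region, and its window had no peak in any list. A shared region over the 5′ end of the span measured 1574 and 916 bp in KO and 900 and 1095 bp in WT. Upstream of the gene lay the other KO-only regions, chr15:101087032-101087289 (258 and 201 bp) and chr15:101092945-101093397 (439 and 429 bp). The last was 406 bp from a shared region of 419 and 515 bp in KO and 549 and 483 bp in WT. The window also takes in parts of Scn8a, Ankrd33 and Acvrl1, the last an endothelial receptor gene of the BMP pathway.

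Klhl5 (gene 71778, chr5:65107551-65168173, plus strand) encodes a kelch-repeat protein of a family that includes adaptors of cullin ubiquitin ligases. The region over its internal start, chr5:65130693-65131303, had 611 and 312 bp in KO. The adjoining one over the start of LOC115490189, chr5:65131473-65132009, had 283 and 537 bp. The gap between them was 169 bp, and the nearest WT peaks lay 1969 and 2749 bp from them. At the first start of Klhl5 the lists did not separate, with peaks of 663 and 692 bp in KO and 681 and 701 bp in WT. The other KO-only regions lay at the 3′ end, at chr5:65166981-65167282 (244 and 302 bp) and chr5:65175169-65175595 (404 bp in each KO list), 6996 bp beyond the gene. Klhl5 had no WT-only region.

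Cradd (gene 12905, chr10:95174739-95324138, minus strand) encodes RAIDD, a death-domain adaptor that links PIDD1 to caspase-2. Its 3 KO-only regions lay inside the gene. They measured 208 and 289 bp at chr10:95258045-95258333, 342 and 363 bp at chr10:95297573-95298029, and 382 and 237 bp at chr10:95307201-95307582. WT peaks lay 186 bp from the second and 406 bp from the third. Between the second and the third stood a WT-only region with a peak of 201 bp in each WT list, 4230 and 4599 bp from them.

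Zfp423 (gene 94187, chr8:87661810-87962053, minus strand) encodes a zinc-finger transcription factor known for its role in preadipocytes and in BMP signalling. Its 4 KO-only regions were narrow, 201 to 362 bp in KO replicate 1 and 213 to 294 bp in KO replicate 2. Of these, 3 lay inside the gene, at chr8:87662885-87663178 (219 and 294 bp), chr8:87708149-87708420 (201 and 272 bp) and chr8:87784233-87784636 (362 and 263 bp). The remaining region, chr8:87974188-87974495 (214 and 213 bp), lay 12135 bp upstream and 80 bp from a shared region of 1257 and 1153 bp in KO and 954 and 1121 bp in WT. Of the 3 inside, the one nearest the 3′ end lay 145 bp from a WT peak. Zfp423 had 24 regions called in neither pattern nor in all 4 lists, the most of the 10 genes, and 30 of its 59 regions were shared. Its WT-only region, chr8:87906848-87907178, measured 331 and 266 bp in WT.

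Btn2a2 (gene 238555, chr13:23477049-23488858, minus strand) encodes a butyrophilin, an immunoglobulin-like protein that modulates T cells. No KO-only region lay inside this short gene (11.81 kb), and all 3 lay upstream of it. Their widths in KO were 212 and 348 bp at chr13:23497988-23498335, 209 and 229 bp at chr13:23506388-23506721 and 312 and 330 bp at chr13:23507083-23507425. The WT-only region of the window, chr13:23465669-23465949 (255 and 242 bp in WT), lay in Btn1a1. The first and second KO-only regions each overlapped a tRNA gene for tryptophan with anticodon CCA, n-TWcca3 and n-TWcca4, an overlap that was noticed after the values were seen. The window holds 28 tRNA genes, of which 14 overlapped a shared region, 2 a KO-only region and 7 no region. Over the series 202 of 408 tRNA genes overlapped a shared region and 3 (0.735%) a KO-only region, so 2 of those 3 are the ones upstream of Btn2a2.

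Pced1b (gene 239647, chr15:97246973-97385693, plus strand) had all 3 of its KO-only regions inside the gene. They measured 242 and 363 bp at chr15:97283255-97283617, 201 and 210 bp at chr15:97327549-97327831, and 274 and 449 bp at chr15:97376779-97377227. WT peaks were 8778, 3466 and 2569 bp from them. The WT-only region of its window lay 43816 bp beyond the 3′ end, with widths of 277 and 245 bp.

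Transcript starts of the 10 genes were mostly open in all libraries. Of 15 annotated start windows, 10 lay under a shared region and 1, the internal start of Klhl5, under a KO-only region. The other 4 (a start each of Palld, Sipa1l2, Zfp423 and Fignl2) lay under no peak. For the first start of Zfp423 the nearest peaks were close to the window, 320 and 204 bp away in KO and 166 and 194 bp in WT. Over 32851 start windows of the series 44.98% overlapped a shared region and 0.137% (45 windows) a KO-only region. Peak widths over the shared starts ran from 424 bp (Btn2a2, KO replicate 1) to 1801 bp (Pced1b, KO replicate 1). At Pced1b, with all peaks of the region added, widths were 1801 and 1584 bp in KO and 1766 and 1799 bp in WT. The single peaks over its start window were 1801 and 1383 bp in KO and 1439 and 1445 bp in WT. At the second start of Zfp423 they were 913 and 837 bp in KO and 814 and 751 bp in WT, and at Btn2a2 424 and 442 bp in KO and 445 and 518 bp in WT, without overlap in either case. At Lrrk2 they were 800 and 629 bp in KO and 654 and 716 bp in WT, so at Pced1b and Lrrk2 the KO values lay on both sides of the WT values. Among the shared starts, KO and WT widths stayed apart only at these starts of Zfp423 and Btn2a2. Over all shared regions of the series both KO widths exceeded both WT widths in 7.37% and were below both in 27.1%.

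**Figure D4:**
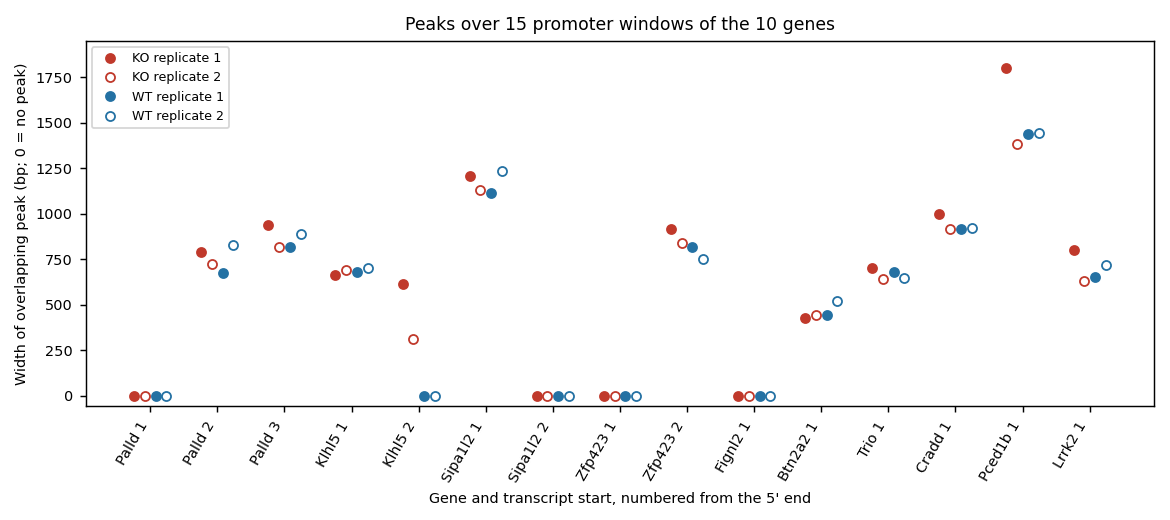
Width in bp of the peak over each of 15 start windows (y axis, 0 for no peak) by gene and start (x axis), with KO libraries in red to the left of WT libraries in blue. At the second start of Klhl5 the KO libraries have peaks of 611 and 312 bp and the WT libraries have none.

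Widths at the 247 shared regions were read from a fit over all 75395 shared regions of the series (limma on quantile-normalised log2 width). It made 0 calls after Benjamini-Hochberg adjustment (smallest adjusted p = 0.537), with 4546 regions (6.03%) at an unadjusted p under 0.05. At the 10 genes 21 of 247 (8.50%) were at that level, 14 wider in KO and 7 narrower, where the background was 2.85% wider and 3.18% narrower. Without quantile normalisation 6.78% of all shared regions were at that level, 945 wider in KO and 4167 narrower. At the 10 genes they were then 10 wider and 16 narrower. Without KO replicate 2 they were 27 wider and 28 narrower, and without WT replicate 1 they were 8 wider and 4 narrower, 12 in all. The count over the series was 8211 and 13882 without KO replicates 1 and 2, and 2188 and 2540 without WT replicates 1 and 2. The genes were chosen on the same contrast, and nothing is read from these counts. Over the 247, log2 width averaged 9.01 and 9.04 in the KO lists, against 8.99 in each WT list, a difference of 0.04. Without quantile normalisation the difference was -0.04, against -0.07 over all shared regions. With it the median difference was 0.02, against 0.01 over all shared regions. The widths of both KO libraries exceeded both WT widths in 32 of the 247 (13.0%; background 7.37%) and were below both in 59 (23.9%; background 27.1%).

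The 5 shared regions with the largest differences in either direction were named after their values were seen. In Zfp423, chr8:87747211-87748031 measured 331 and 821 bp in KO and 309 and 226 bp in WT (log2 difference 1.14, SE 0.48), so the KO lists differed widely from each other. In Palld, chr8:61730958-61731607 measured 241 and 313 bp in KO and 650 and 591 bp in WT (-1.06, SE 0.11). Also in Palld, chr8:61670090-61671985 measured 1578 and 387 bp in KO and 1644 and 1653 bp in WT (-1.06, SE 0.68), so KO replicate 1 was close to the WT lists and KO replicate 2 was far narrower. A second region in Zfp423, chr8:87822137-87822738 measured 496 and 530 bp in KO and 226 and 318 bp in WT (1.04, SE 0.20). In Pced1b, chr15:97337855-97338794 measured 940 and 748 bp in KO and 405 and 591 bp in WT (0.82, SE 0.22). Sipa1l2 had 6 of its 36 shared regions at an unadjusted p under 0.05, each wider in KO (background 2.85% wider), and Trio had 3 of 36, each narrower (background 3.18% narrower), from which nothing is read. An example at Sipa1l2 was chr8:125618916-125619278 with 313 and 363 bp in KO and 257 and 221 bp in WT (0.65, SE 0.11). An example at Trio was chr15:27960546-27961227 with 465 and 491 bp in KO and 675 and 682 bp in WT (-0.45, SE 0.10). In these 7 regions, picked by the size or the p-value of their difference, the KO and WT widths did not overlap, and nothing is read from that. Over all shared regions of the series both KO widths exceeded both WT widths in 7.37% and were below both in 27.1%. Median differences by gene stayed between -0.01 and 0.09.

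**Figure D5:**
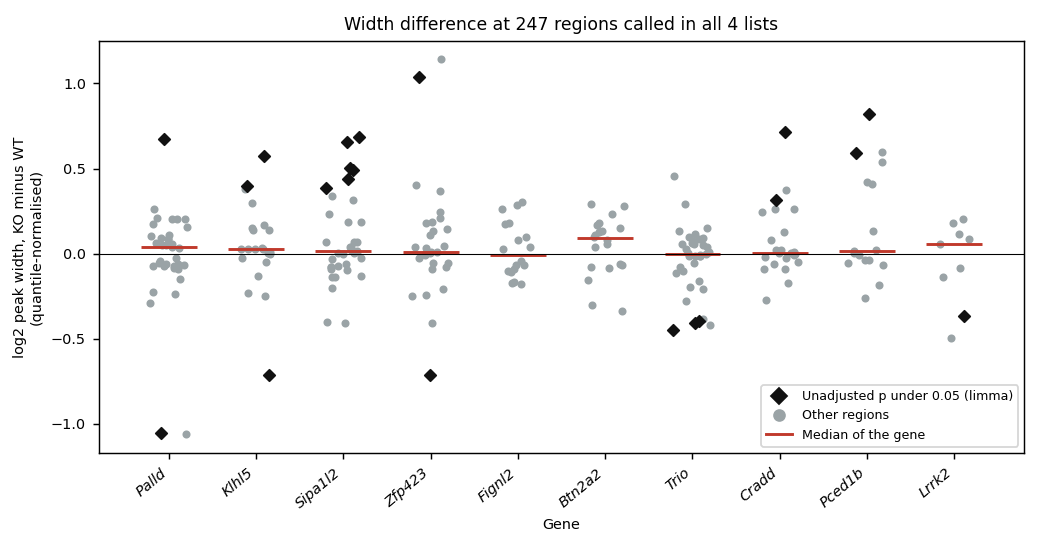
Difference in quantile-normalised log2 peak width, KO minus WT (y axis), at the 247 shared regions by gene (x axis); diamonds mark an unadjusted p under 0.05 and red lines the gene medians. Medians lie between -0.01 and 0.09, and the 6 diamonds of Sipa1l2 are above 0.

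Relatives and partners of the 10 genes were counted as a list of 16 genes: Mypn, Myot, Kalrn, Sipa1, Sipa1l1, Sipa1l3, Lrrk1, Fign, Fignl1, Klhl1, Klhl4, Zfp521, Btn1a1, Casp2, Pidd1 and Pced1a. Their windows held 354 regions, of which 235 (66.4%) were shared, 10 (2.82%) KO-only at 7 genes and 8 (2.26%) WT-only at 8 genes. The backgrounds over all regions were 66.7% shared, 1.12% KO-only and 3.04% WT-only. Of the 10, 3 are those of Btn2a2, whose window overlaps that of Btn1a1. Kalrn, the closest relative of Trio, had 81 regions with 1 KO-only and 1 WT-only, where Trio had 62 with 3 and 2. Sipa1l3 had 2 KO-only regions and Sipa1l1 none, beside 4 at Sipa1l2. Casp2, which encodes the caspase that Cradd recruits, had none, and Pidd1 had 1. Zfp521, the paralogue of Zfp423, had 1 KO-only and 1 WT-only among 46 regions.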

How the data were processed

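Peak lists of 4 ATAC-seq libraries, 2 KO and 2 WT by their titles, were analysed. Per the submitters' processing notes cutadapt, Bowtie2, Picard and the mm10 build were used; the peak caller, its threshold and read filters are not given in the sources used here. Per the file headers the lists give peak position and width, and width in base pairs, the only measurement, was taken as deposited by the authors. Whether reads were scaled before peak calling is not stated there. A deeper library or a looser threshold could list more narrow peaks.

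Peaks of the main chromosomes (1 to 19 and the sex chromosomes) that overlapped by at least 1 bp became 1 region. Where a list had several peaks in a region their widths were added. Gene spans, starts and sequences came from RefSeq (GRCm38.p6), and all 10 genes and 16 relatives matched by symbol. Widths of shared regions were compared with limma 3.58.1 in R 4.3.3 without covariates, Benjamini-Hochberg adjusted at 0.05. The labels do not say whether libraries are separate animals, so p-values measure the spread between libraries. Python 3.11.15, numpy 2.4.6, pandas 2.3.3 and matplotlib 3.10.9 were used. Merging and fit were tested on simulated data.

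The members and lists were chosen with earlier results of these data known. Every KO-only region of the 10 genes was named, and other genes only as relatives, markers, window neighbours or overlapped genes. Alternatives covered the overlap, a 500 bp gap, list length, width, window, normalisation, pairing and each library left out.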

Additional observations from a re-analysis of the deposited data

How the results depend on the processing

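Of the 33 KO-only regions, 31 kept their pattern when joined peaks had to share at least 0.5 of the narrower peak. With no WT peak allowed within 500 bp 27 kept it, with lists of equal length 24 did, and under all 3 settings 20 did. Equal length was reached by dropping the narrowest peaks of each list except that of KO replicate 1, the shortest. Under all 3 settings Klhl5 kept 4 of 4, Lrrk2 2 of 2 and Palld 3 of 4. Sipa1l2, Btn2a2, Trio and Pced1b kept 2 each, and Zfp423, Fignl2 and Cradd kept 1 each. When peaks below their list's median width were dropped, the gene windows held 6 KO-only and 121 shared regions, and 3 of the 33, at Palld, Fignl2 and Lrrk2, kept their pattern; fewer peaks enter by construction. Windows of 0, 10 and 100 kb gave 24, 28 and 36 KO-only regions.

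A pattern needs 1 list fewer once a library is left out, and the counts were then 36 to 59 KO-only, 14 to 35 WT-only and 250 to 282 shared regions. The 59 came without KO replicate 1; WT-only regions were 19 and 35 without KO replicates 1 and 2 and 14 and 22 without WT replicates 1 and 2. Shared regions of the series at an unadjusted p under 0.05 in limma numbered 8211 and 13882 without KO replicates 1 and 2 and 2188 and 2540 without WT replicates 1 and 2, with 0 after adjustment each time. The mean log2 width difference, KO minus WT, at the genes was 0.0363, and 0.0200 to 0.0502 without each library. Without quantile normalisation it was -0.0387, against -0.0715 over all shared regions of the series (-2.67e-05 with normalisation). The cause was not tested. With the replicate number as a block 4394 regions were at that level and 0 after adjustment; same-numbered libraries did not deviate together (correlation -0.04). Depth is unknown, so its limit on these lists could not be given.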
